A study of Mus musculus with 8 samples.

Results

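The Max network is a family of transcription factors that pair through a basic helix-loop-helix leucine zipper, and 9 of its genes were followed here among the 55471 genes of the exonic count table: Max, Mlx, Myc, Mycl, Mnt, Mxd1, Mxd4, Mxi1 and Mga. They were chosen by name, with Mnt leading because its RNA was higher in pilocarpine-treated samples than in mock-treated samples, so the comparison of those groups for these genes is a description of values and carries no test. All 9 were present in the exonic table and in the second table of 18513 genes, which holds exonic and intronic counts separately.

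Max is the shared partner: Myc and its relative Mycl bind DNA at E-box sequences only when paired with Max, and these pairs generally activate transcription, most familiarly of genes for ribosome assembly, nucleotide synthesis and growth. Mnt, Mxd1, Mxd4 and Mxi1 pair with the same Max and bind the same sequences, but recruit the Sin3 and histone deacetylase complex and repress. Mga pairs with Max within a variant Polycomb complex, and Mlx is another hub that pairs with Mnt, Mxd1, Mxd4 and the glucose-sensing factors MondoA and ChREBP. Myc is classically an early responder to growth signals, while the Mxd genes are known for their expression in differentiated, non-dividing cells such as neurons.

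The samples were excitatory neuronal nuclei of the forebrain of male C57BL/6J mice aged 6 to 8 weeks. All animals carried CaMKIIalpha-Cre and SUN1-sfGFP, so that Cre driven by the CaMKIIalpha promoter switches on a green fluorescent tag of the nuclear envelope, by which nuclei were pulled down (INTACT) and their polyadenylated RNA sequenced with strand kept. Both groups received scopolamine methyl nitrate at 1 mg/kg, which limits effects of pilocarpine outside the brain, and 30 min later either pilocarpine at 340 mg/kg (Pilo, 4 samples) or saline (Mock, 4 samples), with tissue taken 100 min after that. Pilo mice were used only if their seizures reached Racine stages 3 to 5, whereas no such choice applied to Mock mice, so the drug, the seizures and the selection cannot be told apart. The labels do not say whether each sample is a separate mouse, and the spread between samples may be partly technical.

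Exonic counts per library ran from 29356788 to 36161448, and intronic counts from 11928054 to 16703475. Levels are given as CPM, read counts scaled by library size with TMM factors, and a log2 difference is Pilo minus Mock from edgeR with its standard error (SE). Markers of excitatory neurons summed to 2318 to 2952 CPM in Mock and 2607 to 3161 CPM in Pilo. Each of the 35 markers of inhibitory neurons and glial or vascular cells was also detected in every library, at levels down to 0.0961 CPM. Whether these markers came from other nuclei was not tested. Their sums in Mock and Pilo were 129 to 166 and 165 to 258 CPM for inhibitory neurons, 174 to 318 and 181 to 412 CPM for astrocytes, and 298 to 417 and 380 to 692 CPM for oligodendrocytes and their precursors. For microglia they were 12.3 to 18.8 and 14.2 to 22.5 CPM, and for endothelial cells and pericytes 15.4 to 31.7 and 18.7 to 78.8 CPM. Pilo 3 was highest in the 5 lists of other cells. By edgeR in exonic counts, 4 of 8 excitatory markers were higher and 1 was lower in Pilo, 2 of 8 inhibitory markers (Gad1 and Gad2) and 1 of 8 oligodendrocyte markers (Mbp) were higher, and 0 astrocyte, microglial or endothelial markers passed, also by DESeq2 or limma-voom or at an unadjusted p under 0.05 (0 markers). DESeq2 called 4 inhibitory and 2 oligodendrocyte markers higher. The libraries numbered 1 and 2 in each group had mitochondrial shares of 0.0157% to 0.0179% of counts and those numbered 3 and 4 had 0.0392% to 0.0524%, so each group was divided evenly by this measure.

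The E-box CACGTG, the sequence that Max-containing pairs recognise, was looked for in the genes' own promoters because network members can bind each other's. Promoter windows from RefSeq (GRCm38.p6, 250 bases before to 50 bases after an annotated start) were matched for 8 of the 9 genes, in 10 windows, and Myc had no entry. The E-box was found in 4 windows, those of Max, Mnt, Mxd4 and Mlx, beginning 3, 123, 219 and 40 bases before the start. CACGTG reads the same on both strands and occurs in 7.15% of all 32851 windows of this length, and in 9.19% of the 16228 windows of genes tested here. Each is shown with 10 bases on either side, on the strand of the gene, with the E-box in capitals.
Max chr12:76962236-76962261, minus strand: tgagcccggtCACGTGttagggggcc
Mnt chr11:74830791-74830816, plus strand: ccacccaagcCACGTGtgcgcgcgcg
Mxd4 chr5:34187914-34187939, minus strand: gctgggccacCACGTGctgttgctaa
Mlx chr11:101087240-101087265, plus strand: tgggttggatCACGTGactgagcctc

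The flanking bases differ among the 4, and the genes that hold the E-box did not share a direction: Mnt was higher in Pilo, Mxd4 lower, and Max and Mlx overlapped between groups. The Mnt window is printed upstream of the start, since Mnt showed the largest difference, with the E-box again in capitals.
Mnt chr11:74830674-74830919, plus strand: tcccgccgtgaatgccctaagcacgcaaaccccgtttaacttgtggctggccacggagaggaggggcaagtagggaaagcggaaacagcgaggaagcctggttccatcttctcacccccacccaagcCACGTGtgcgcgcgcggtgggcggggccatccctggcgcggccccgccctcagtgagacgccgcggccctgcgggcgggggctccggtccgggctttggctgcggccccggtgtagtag

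Motifs of factors known to act early after neuronal activity were sought on both strands in the same windows. The cyclic AMP response element TGACGTCA, found in 1.79% of all windows, was in none of the 10. The AP-1 motif TGANTCA (7.81% of windows), the Egr motif GCGTGGGCG (0.612%) and the serum response factor motif known as the CArG box (1.63%) were likewise in none of them. These letters were searched only in 300 bases per window.

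**Figure D1:**
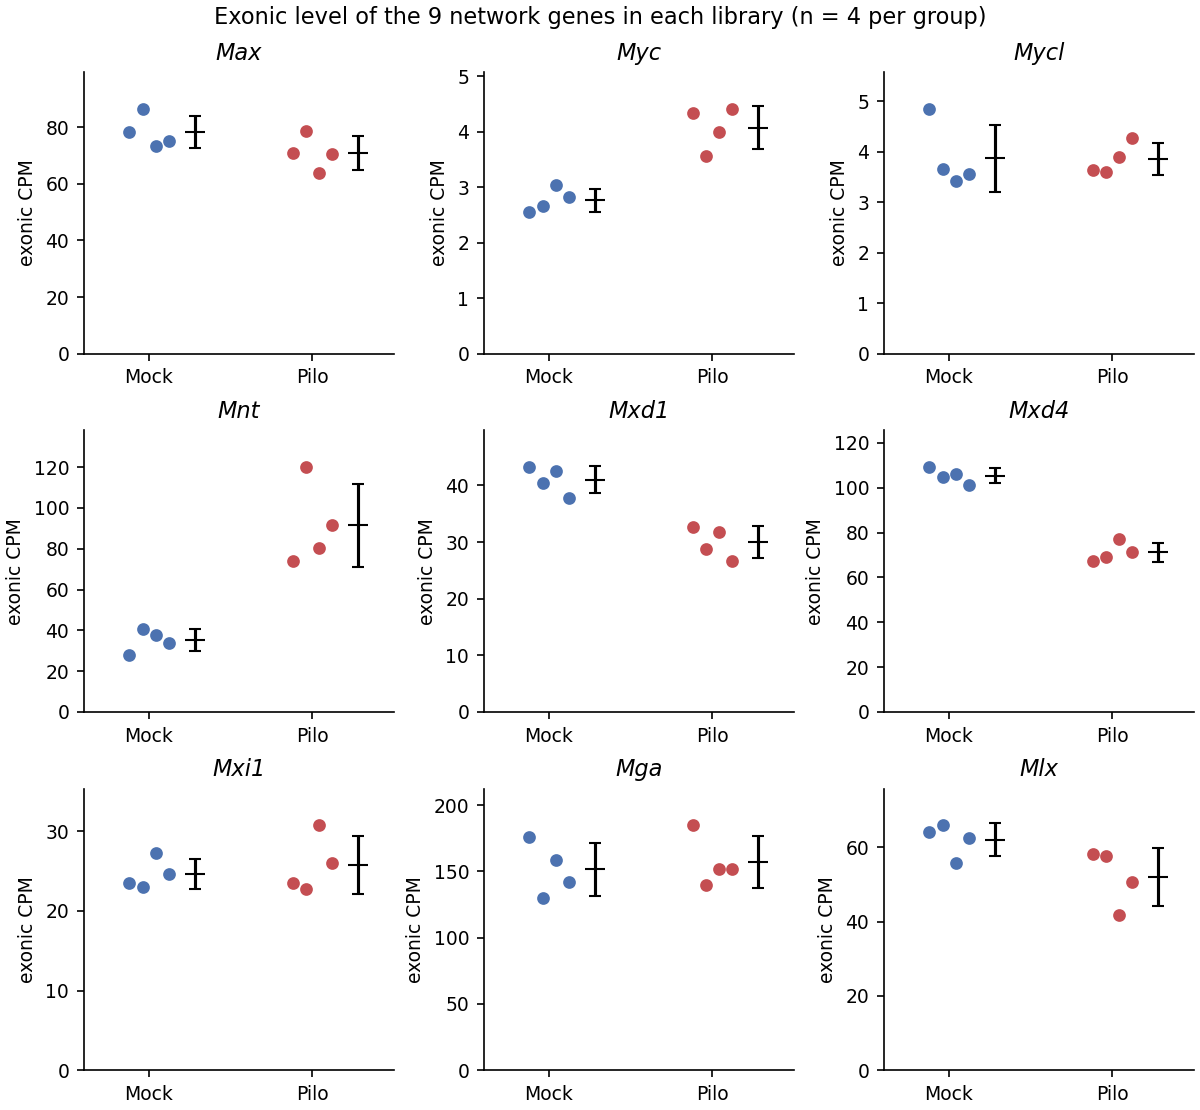
Exonic CPM of the 9 network genes in each library, 1 panel per gene with its own axis, points for single libraries and bars for the group mean and SD (n = 4). Mnt and Myc lie higher in every Pilo library than in any Mock library, Mxd1 and Mxd4 lie lower, and the groups overlap for the other 5.

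Of the 9 genes, 2 (Mnt and Myc) were past the adjusted threshold of 0.05 toward Pilo in the exonic comparison, where 15.6% of all 19176 genes tested were, and 2 (Mxd1 and Mxd4) were past it toward Mock, where 16.2% of all genes were; 31.8% were past it in either direction. All 9 passed the filter on low counts. The same genes were those whose groups did not overlap in CPM, which held for 15.7% of all genes toward Pilo and 16.2% toward Mock. The median log2 difference of the 9 was -0.01, against 0.0050 over all genes. Because the genes were chosen with this comparison known, nothing is read from these counts. In nuclei pooled from many cells, fewer cells with a transcript and less of it per cell cannot be told apart.

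Max, the shared partner, lies on chromosome 12 from 76937269 to 76962201 on the minus strand (GRCm38, as are all gene positions here). Its exonic level was 78.3, 86.4, 73.3 and 75.1 CPM in Mock 1 to 4 and 70.7, 78.6, 63.8 and 70.5 CPM in Pilo 1 to 4. The groups overlapped, with Pilo 2 above Mock 1, Mock 3 and Mock 4. Each Pilo library was, however, below the Mock library of the same number. The log2 difference was -0.14 (SE 0.08).

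Mlx, the other hub, spans 101087277 to 101092207 on the plus strand of chromosome 11. It measured 64.3, 66.0, 55.8 and 62.5 CPM in Mock and 58.2, 57.7, 41.7 and 50.7 CPM in Pilo. Pilo 3 was lowest, and 2 Pilo libraries lay above Mock 3, so the groups overlapped. Here too each Pilo library was below the Mock library of the same number. The log2 difference was -0.25 (SE 0.10). Mlx shares 385 exonic bases with Psmc3ip on the opposite strand, which measured only 1.62 CPM in Mock and 1.14 CPM in Pilo. With the replicate number as a block, Max (-0.14) and Mlx (-0.26) were also past the threshold, which made 4 genes toward Mock, where 23.2% of all genes were under that block, against 23.8% toward Pilo. Mlx was also past it without Pilo 1, without the filter on low counts and with a minimum count of 50, which made 3 genes toward Mock in each case.

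Myc, the best known activator of the network, lies on chromosome 15 from 61985391 to 61990374 on the plus strand. Its level was low, at 2.55, 2.66, 3.04 and 2.82 CPM in Mock and 4.34, 3.56, 3.99 and 4.41 CPM in Pilo. Every Pilo library was above every Mock library, and the gap between the nearest pair, Mock 3 and Pilo 2, was narrow. The log2 difference was 0.56 (SE 0.15), a fold of 1.47. The part of other cell types in the level of Myc was not tested. Within the libraries of low mitochondrial share the log2 ratio of mean CPM was 0.60, and within those of high share 0.52. The shared sign follows from the lack of overlap between groups.

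Mycl, a relative of Myc named for its discovery in lung tumours, spans 122995652 to 123002485 on the plus strand of chromosome 4. It measured 4.84, 3.65, 3.41 and 3.55 CPM in Mock and 3.63, 3.59, 3.89 and 4.28 CPM in Pilo. Mock 1 stood above the other Mock libraries, and the groups overlapped. The log2 difference was -0.01 (SE 0.16), so of these activators the low-level Myc differed between groups and Mycl overlapped. Within the libraries of low and of high mitochondrial share, the log2 ratio of Mycl was -0.24 and 0.23, opposite in sign.

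Mnt, a repressor that is broadly expressed and is regarded as a main antagonist of Myc, is ENSMUSG00000000282, on chromosome 11 from 74830920 to 74845725 on the plus strand. Its exonic level was 28.1, 40.5, 37.9 and 34 CPM in Mock and 73.9, 120.0, 80.2 and 91.6 CPM in Pilo. The lowest Pilo library, Pilo 1, was well above the highest Mock library, Mock 2. The means were 35.1 ± 5.38 and 91.4 ± 20.4 CPM (SD, n = 4), a log2 difference of 1.38 (SE 0.16) or 2.60-fold. This was the 204th highest log2 difference of the 19176 genes tested. The log2 ratio was 1.5 within the libraries of low mitochondrial share and 1.26 within those of high share. Here too the shared sign follows from the lack of overlap between groups.

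Mxd1, a repressor first described as rising when cells leave the cell cycle and differentiate, spans 86647042 to 86669161 on the minus strand of chromosome 6. It measured 43.2, 40.5, 42.5 and 37.8 CPM in Mock and 32.7, 28.8, 31.9 and 26.6 CPM in Pilo. All Pilo libraries lay below all Mock libraries. The means were 41.0 ± 2.42 and 30.0 ± 2.78 CPM (SD, n = 4), a log2 difference of -0.45 (SE 0.09).

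Mxd4, a relative of Mxd1, lies on chromosome 5 from 34173883 to 34187720 on the minus strand. Its level was 109.2, 104.6, 106.2 and 101.4 CPM in Mock and 67.5, 69.0, 77.1 and 71.3 CPM in Pilo. The libraries within each group were close together, and the groups were far apart. The means were 105 ± 3.24 and 71.2 ± 4.20 CPM (SD, n = 4), a log2 difference of -0.57 (SE 0.07), with -0.65 and -0.48 within the libraries of low and high mitochondrial share. The exonic counts of the second table gave -0.46. An antisense gene, Gm42846, overlaps 514 exonic bases of Mxd4 and measured 0.758 CPM in Mock and 0.587 CPM in Pilo.

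Mxi1, another repressor of this kind, lies on chromosome 19 from 53310518 to 53375810 on the plus strand. It measured 23.6, 23.0, 27.3 and 24.7 CPM in Mock and 23.5, 22.8, 30.7 and 26 CPM in Pilo. The groups overlapped throughout, and the log2 difference was 0.06 (SE 0.10). A transcript on the opposite strand, AC133451.2, overlaps 5146 bases of the gene but no exonic base, and fell from 9.82 to 3.07 CPM, by 1.68 on the log2 scale (edgeR adjusted p = 4.54e-06).

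Mga, the largest gene of the set and the scaffold of a Polycomb-type repressor complex, spans 119897228 to 119969581 on the plus strand of chromosome 2. It measured 176, 130, 159 and 142 CPM in Mock and 185, 140, 152 and 152 CPM in Pilo. The libraries numbered 1 were highest in both groups. The groups overlapped, with a log2 difference of 0.05 (SE 0.11). The repressors that pair with Max thus did not share a direction: Mnt was higher, Mxd1 and Mxd4 were lower, and Mxi1 and Mga overlapped.

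**Figure D2:**
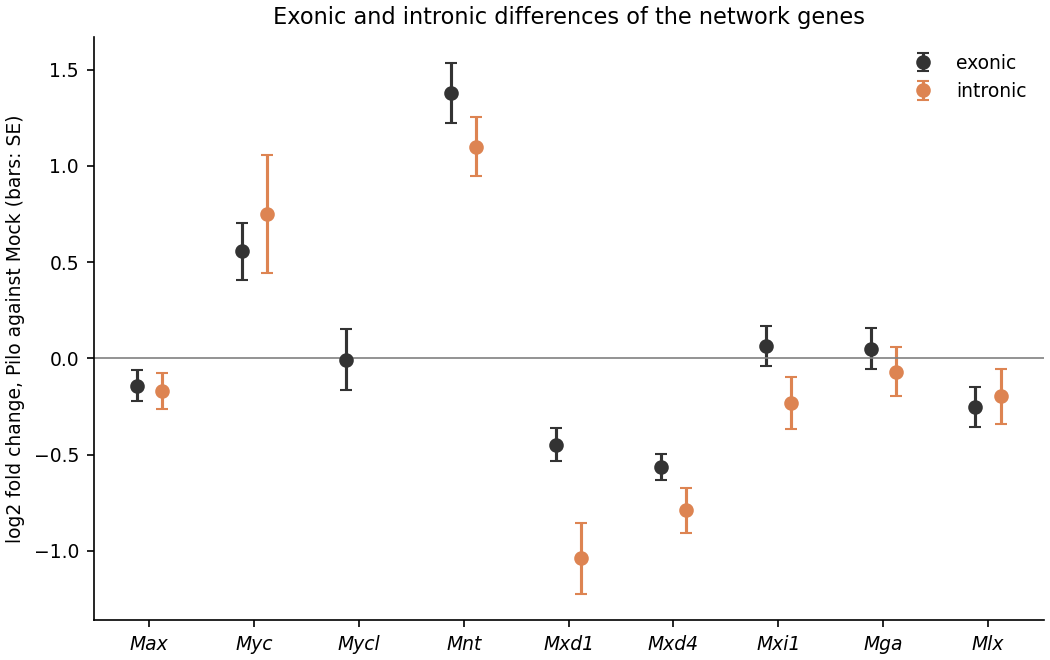
Log2 difference of Pilo minus Mock for each network gene in exonic and in intronic counts, points for the estimate and bars for its SE. Mnt is the highest in both, at 1.38 and 1.10, and Mxd1 and Mxd4 are lowest, with intronic differences of -1.04 and -0.79 below their exonic ones.

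Intronic counts come mostly from RNA not yet spliced, so they were read as a separate measurement of the same genes in the same libraries. Of the 9 genes, 8 passed the filter on low intronic counts. Mycl did not, with 24 intronic counts over the 4 Mock libraries and 13 over the 4 Pilo libraries. Past the threshold were 1 gene toward Pilo (Mnt), where 19.6% of 13318 genes were, and 2 toward Mock (Mxd1 and Mxd4), where 21.9% were; over both directions it was 41.4%. The same genes were those without overlap in intronic CPM, which held for 17.8% of all genes toward Pilo and 19.2% toward Mock. The median of the 8 was -0.18. As in exonic counts, the genes were chosen with the comparison known, and nothing is read from these counts of genes. By edgeR, intronic counts of 3 of 8 excitatory markers were higher in Pilo and 1 was lower. Those of 4 of 8 inhibitory markers and 1 of 6 astrocyte markers (Gfap) were also higher in Pilo. So were those of 1 of 6 oligodendrocyte markers (Mbp) and 1 of 4 microglial markers (Cx3cr1), while 0 of 4 endothelial markers passed. Intronic Cx3cr1 measured 99.6 CPM in Mock and 189 CPM in Pilo, against 2.16 and 2.80 CPM in exonic counts. The other microglial markers tested had intronic means of 1.42 to 2.57 CPM in Mock and 1.83 to 2.92 CPM in Pilo. The source of the intronic Cx3cr1 reads, and the part of other cell types in the intronic values, was not tested. In the second table the numbers 2 and 3 are exchanged against the exonic table in both groups, and numbers from here to the end of the intronic values follow the second table.

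Intronic Mnt measured 28.5, 41.3, 34.2 and 29.8 CPM in Mock and 57.4, 64.3, 92.5 and 73.3 CPM in Pilo. No Pilo library reached down to Mock, and the highest, Pilo 3, is the same library as Pilo 2 of the exonic table, which was highest there too. The log2 difference was 1.10 (SE 0.15), and it was 1.26 and 0.95 within the libraries of low and high mitochondrial share.

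Intronic Mxd1 measured 19.9, 20.1, 15.7 and 15.6 CPM in Mock and 11.8, 7.96, 8.62 and 6.17 CPM in Pilo. The groups were apart, and the log2 difference of -1.04 (SE 0.18) was larger in size than the exonic one. Intronic Mxd4 measured 112, 113, 86.1 and 88.0 CPM in Mock and 57.1, 63.3, 51.5 and 59.0 CPM in Pilo, again without overlap. Its log2 difference was -0.79 (SE 0.12).

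The other genes overlapped between groups in intronic counts. The log2 difference was -0.17 (SE 0.09) for Max, -0.20 (SE 0.14) for Mlx, -0.23 (SE 0.14) for Mxi1 and -0.07 (SE 0.13) for Mga. For Myc it was 0.75 (SE 0.30), from only 80 intronic counts in Mock and 113 in Pilo. With the replicate number as a block, 2 genes were past the threshold toward Pilo (Myc added, at 0.76) and 5 toward Mock (Max, Mlx and Mxi1 added), where 27.7% and 29.2% of all genes were under that block. Myc was also past it without Mock 2 or without Pilo 4.

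The exonic difference minus the intronic difference of a gene was taken from a model of region and treatment over the second table. Past its threshold were 3 of the 8 genes with the exonic difference above the intronic one (Mnt, Mxd1 and Mxd4), where 13.5% of 13047 genes were, and 0 with it below, where 12.8% were; at an unadjusted p under 0.05 that was also 0. Over both directions 26.2% of all genes passed. The exonic minus intronic value was 0.25 (SE 0.09) for Mnt, 0.57 (SE 0.13) for Mxd1 and 0.32 (SE 0.11) for Mxd4, against a median of 0.0092 over all genes. Mxd1 was past the threshold without any 1 library, while Mnt and Mxd4 were not past it without Mock 1, Mock 2 or any single Pilo library. Over these runs 1 to 3 genes passed, with Mxi1 past the threshold only without Pilo 3. The genes were chosen with the exonic and intronic comparisons known, so nothing is read from these calls. For the others the value was 0.28 (SE 0.12) for Mxi1, 0.10 (SE 0.08) for Mga, 0.01 (SE 0.07) for Max, -0.07 (SE 0.07) for Mlx and -0.23 (SE 0.28) for Myc.

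The intronic share of a gene's counts shows the same data per library. For Mnt it was 30.5% ± 2.67 in Mock and 23.7% ± 0.535 in Pilo (SD, n = 4), without overlap. For Mxd1 it was 16.6% ± 1.46 and 10.1% ± 2.01, and for Mxd4 36.5% ± 4.30 and 27.9% ± 1.26, also without overlap. The share was therefore lower in Pilo both for the gene that was higher and for the genes that were lower. Mga (16.2% and 13.2%) and Mlx (31.3% and 28.8%) did not overlap either, whereas Max, Mxi1, Myc and Mycl did. The intronic share of all counts in a library was itself lower in Pilo, at 29.2% to 30.6% against 31.9% to 33.7% in Mock. The median share over genes was lower too, at 29.4% to 31.4% in Pilo against 33.5% to 35.6% in Mock, without overlap. The part of this general shift in the shares of the network genes was not tested. How many of all genes lacked overlap was not counted, so nothing is read from the lack of overlap here.

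Levels of different genes were compared per kilobase of exon, using the union of annotated exons (GENCODE vM21), which can overstate the length of the transcript in use and so understate the level, as for Mxd4 with its 8483 bases. In Mock the order by mean was Mlx (31.1 CPM per kb), Max (21.8), Mxd4 (12.4), Mga (9.88), Mnt (7.6), Mxd1 (5.80), Mxi1 (3.61), Myc (1.02) and Mycl (0.957). Neighbours whose ranges overlapped were Mga and Mnt, Mnt and Mxd1, and Myc and Mycl. Mlx stood at percentile 93.7 and Mnt at 67.3 among 18629 protein-coding genes, with Myc and Mycl at 37.5 and 36.9.

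In Pilo, Mnt came next after Mlx in the order, at 19.8 ± 4.41 CPM per kb (SD, n = 4). Mlx was at 26.1 ± 3.87 and Max at 19.7 ± 1.68 CPM per kb, and the range of Mnt overlapped both. Mga followed at 10.2, Mxd4 at 8.4, Mxd1 at 4.24, Mxi1 at 3.77, Myc at 1.5 and Mycl at 0.952 CPM per kb. Mxd1 and Mxi1, which were apart in Mock, overlapped in Pilo, and Myc and Mycl, which overlapped in Mock, were apart. The level of Mnt divided by that of Max was 0.350 ± 0.0515 in Mock and 0.997 ± 0.153 in Pilo, and divided by that of Mxd4 it was 0.613 ± 0.101 and 2.36 ± 0.582. These are RNA levels in nuclei and give no amount of protein.

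**Figure D3:**
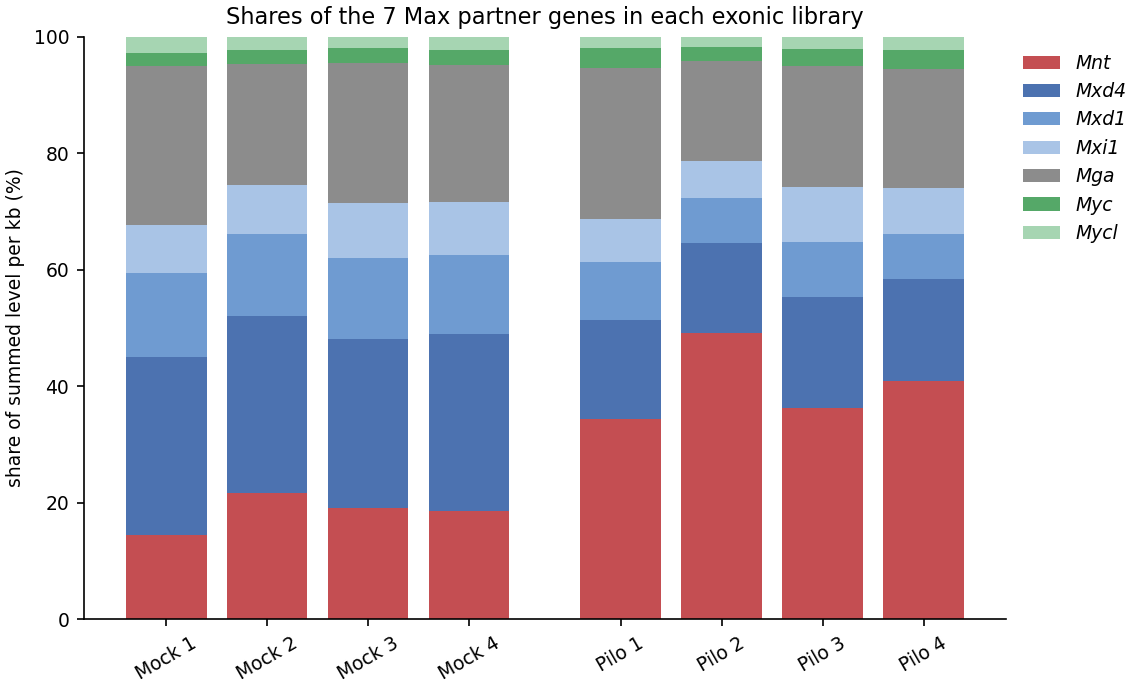
Share of each gene in the summed exonic level per kilobase of the 7 genes Mnt, Myc, Mycl, Mxd1, Mxd4, Mxi1 and Mga, stacked to 100% for each library. The Mnt share is 34.3% to 49.1% in the Pilo libraries and 14.4% to 21.6% in the Mock libraries, and the Mxd4 share is smaller in Pilo.

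The summed level of the 7 genes whose products pair with Max was 41.3 ± 1.60 CPM per kb in Mock and 48.9 ± 2.73 in Pilo (SD, n = 4). Mnt made up 14.4%, 21.6%, 19.0% and 18.6% of that sum in Mock and 34.3%, 49.1%, 36.3% and 41.0% in Pilo. The largest contributor thus differed: Mxd4 led in Mock at 30.1% ± 0.686 and Mnt led in Pilo at 40.2% ± 6.58. Mxd4 made up 17.2% ± 1.48 and Mxd1 8.72% ± 1.13 in Pilo, the latter against 14.0% ± 0.398 in Mock.

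Mxd1, Mxd4 and Mxi1 together summed to 21.8 ± 0.785 CPM per kb in Mock and 16.4 ± 1.14 in Pilo, and with Mnt added the sums were 29.4 ± 1.21 and 36.2 ± 3.93. The activators Myc and Mycl together were at 1.98 ± 0.114 and 2.45 ± 0.200 CPM per kb. Myc was 2.47% of the partner sum in Mock and 3.09% in Pilo, with overlap, so its share differed less clearly than its level. Mycn and Mxd3, which also pair with Max, are outside the partner sum. Mycn was at 2.29 ± 0.286 CPM per kb in Mock and 0.971 ± 0.221 in Pilo. With Mycn added, the activators summed to 4.27 ± 0.231 CPM per kb in Mock and 3.42 ± 0.332 in Pilo, so the direction of the activator sum turned with its inclusion.

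The genes whose profile over the 8 exonic libraries was nearest to that of Mnt were sought among 12858 genes by the root mean square difference of centred log2 CPM. They were Stk40 (0.106), Gpt2 (0.123), Rnf39 (0.126), Pdgfb (0.127) and Ppp2r1b (0.135). Their log2 differences between Pilo and Mock were 1.24, 1.31, 1.37, 1.29 and 1.21. That these lie close to that of Mnt follows from the choice by profile over the same libraries. The libraries share depth and replicate structure, and this likeness is a description over 8 points.

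The rest of the network and other E-box factors of the same structural class formed a list of 13 genes, of which 12 passed the filter. By edgeR, 4 (33.3%) rose in Pilo and 1 (8.33%) fell, with a median log2 difference of 0.09. Mycn, the Myc relative of neural progenitors, was the one that fell: it measured 6.67, 7.4, 7.27 and 8.89 CPM in Mock and 4.23, 2.94, 2.52 and 3.12 CPM in Pilo. Its groups were apart, with a log2 difference of -1.24 (SE 0.17, adjusted p = 0.000145), and the intronic difference was -1.27 (adjusted p = 0.00423). The exonic levels of Myc and Mycn thus differed between groups in opposite directions.

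Mlxip, which encodes MondoA, rose from 83.6 ± 4.25 to 115 ± 17.9 CPM (log2 difference 0.46, adjusted p = 0.00411). Mxd3, the Mxd relative of cycling progenitors, rose from 1.86 ± 0.171 to 2.7 ± 0.313 CPM (0.53, adjusted p = 0.0298). Its intronic difference was larger, at 1.82, from only 31 intronic counts in Mock and 95 in Pilo, and the exonic minus intronic value was -1.32 (adjusted p = 0.00542), opposite in sign to those of Mnt, Mxd1 and Mxd4. Srebf1 (0.50, adjusted p = 0.0488) and Srebf2 (0.22, adjusted p = 0.0306), regulators of lipid and sterol synthesis, also rose. The count of 4 was 1 to 3 without any 1 library and 1 without the filter on low counts: Mxd3 was not past the threshold without Mock 1, 2 or 3 or Pilo 1, 2 or 4, and Srebf2 not without Mock 1, 2 or 4 or Pilo 2, 3 or 4. Srebf1 was not past it without Mock 1, 2 or 3 or Pilo 3 or 4, without the filter (adjusted p = 0.189) or with a minimum count of 50 (adjusted p = 0.0561).

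**Figure D4:**
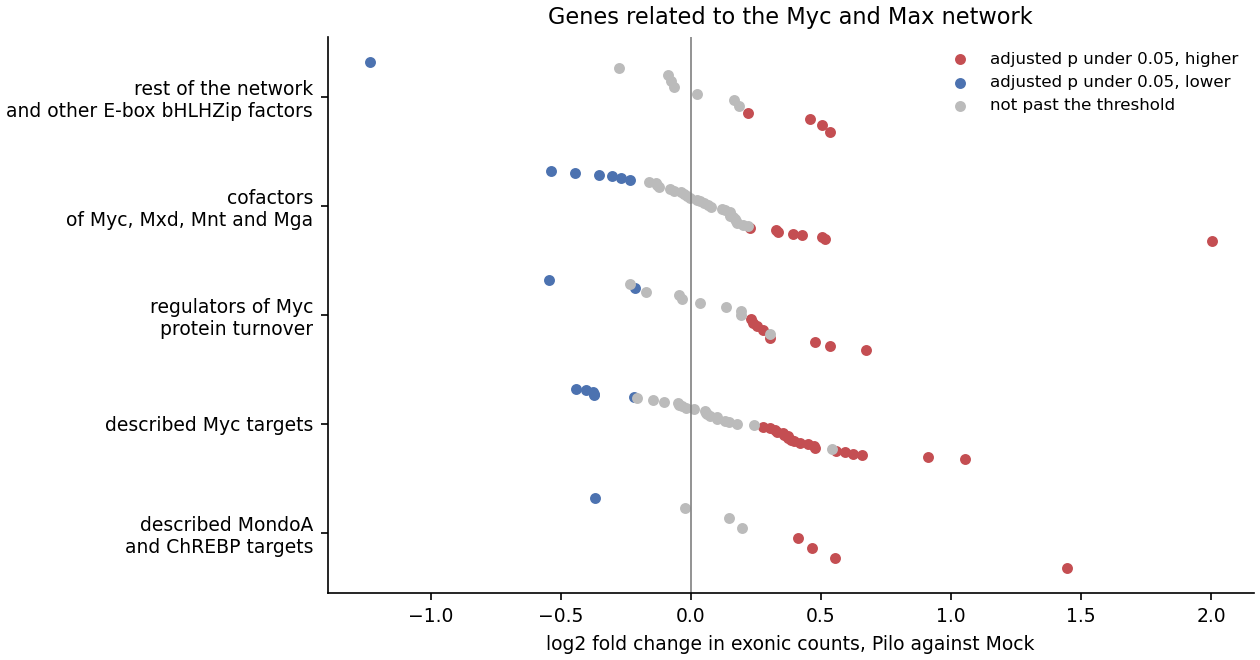
Log2 difference of Pilo minus Mock in exonic counts for every tested gene of the 5 related lists, 1 point per gene, with genes past the adjusted threshold of 0.05 marked. Sap30 is highest at 2.0 and Mycn lowest at -1.24 of the genes drawn.

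Cofactors through which the network's factors act numbered 40, and 8 (20.0%) rose and 6 (15.0%) fell, with a median of 0.07. Sap30, a subunit of the Sin3 histone deacetylase complex that Mnt and the Mxd proteins recruit, had the largest log2 difference in the list. It measured 2.79, 2.76, 3.20 and 3.86 CPM in Mock and 8.74, 14.5, 12.2 and 15.1 CPM in Pilo (2.0, SE 0.18, adjusted p = 7.13e-06). Other Sin3 complex subunits went both ways: Rbbp7, a histone-binding subunit, rose (0.43, adjusted p = 0.000713) and Suds3, which joins Sin3 to the deacetylases, fell (-0.54, adjusted p = 0.00012). Sin3b (-0.35, adjusted p = 0.00191) and the deacetylase Hdac1 (-0.30, adjusted p = 0.0114) also fell, while Sin3a and Hdac2 were not past the threshold. Pcgf6, a partner of Mga in its Polycomb complex, fell from 116 ± 9.27 to 85.4 ± 7.16 CPM (-0.45, adjusted p = 0.00128). With the replicate block, 13 cofactors rose, where 23.8% of all genes did.

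Regulators of Myc protein turnover numbered 19, and 8 (42.1%) rose and 2 (10.5%) fell, with a median of 0.19. Gsk3b, the kinase that marks Myc for degradation, rose from 79.5 ± 6.93 to 111 ± 6.39 CPM (0.48, adjusted p = 0.000599). Usp36, a nucleolar deubiquitinase of Myc, rose (0.67, adjusted p = 0.00112) and Skp2, a ubiquitin ligase subunit, fell (-0.55, adjusted p = 0.000247), so enzymes described as stabilising and as destabilising Myc were both among those that rose. The count that rose was 4 without Mock 4 and 5 without Mock 2, and the count that fell was 1 in 6 of the 8 runs that each left out 1 library.

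Described targets of Myc, mostly of ribosome assembly and metabolism, numbered 45, and 20 (44.4%) rose and 6 (13.3%) fell, with a median of 0.18. In intronic counts 19 of 41 rose and 5 fell, where 19.6% and 21.9% of all genes did. Odc1, the first enzyme of polyamine synthesis, measured 24.0, 21.1, 19.6 and 22.0 CPM in Mock and 31.5, 36.5, 34.2 and 31.1 CPM in Pilo (0.62, adjusted p = 0.000204). Fbl, the methyltransferase fibrillarin of the nucleolus, rose from 23.2 ± 2.07 to 48.1 ± 10.5 CPM (1.05, adjusted p = 0.000111). Ppan (0.91, adjusted p = 0.000241) and Wdr43 (0.48, adjusted p = 0.000216), both of ribosome assembly, rose as well. Over all protein-coding genes tested in exonic counts, 18.1% rose and 15.6% fell. The lists were chosen with results of these data known, so no list is set apart from other genes by these shares.

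Described targets of MondoA and ChREBP numbered 9, of which 8 passed the filter, and 4 (50.0%) rose and 1 (12.5%), the fructose kinase Khk, fell (-0.37, adjusted p = 0.0434). Their median was 0.30. Txnip, an inhibitor of glucose uptake, measured 4.15, 3.52, 7.0 and 7.48 CPM in Mock and 7.85, 10.4, 24.1 and 18.3 CPM in Pilo (1.45, SE 0.41, adjusted p = 0.0321). Libraries 3 and 4 were higher than 1 and 2 in both groups. The same held for the summed markers of astrocytes, of oligodendrocytes and their precursors, of microglia and of endothelial cells. The part of those cells in Txnip was not tested. Gpd1, a glycerol phosphate dehydrogenase (0.56, adjusted p = 0.00223), Klf10, a zinc finger repressor (0.46, adjusted p = 0.0123), and Fasn, the fatty acid synthase (0.41, adjusted p = 0.0155), also rose. Txnip was not past the threshold without Mock 1, Mock 2, Mock 3 or Pilo 4, or without the filter on low counts (edgeR adjusted p = 0.0938). Fasn was not past it without Pilo 4, and the count that rose was then 2. With the replicate block Txnip had a log2 difference of 1.41 (edgeR adjusted p = 8.89e-08). Khk's call was lost without Mock 1, 3 or 4 or Pilo 1, 3 or 4.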

How the data were processed

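The deposited values are raw read counts per gene, and the authors made them with tools whose roles are not recorded: Trimmomatic 0.39, STAR 2.7.1a, HTSeq 0.11.2, edgeR and R 4.1.1, on mm10, per the submitters' processing notes. How exonic reads were told from intronic ones, the annotation and the strand setting have no statement (not given in the sources used here), so reads of overlapping genes may be shared. Of 55471 Ensembl genes 55144 matched a symbol, and of 18513 Entrez genes 18507. Columns were read by name within each table. Over 12332 genes, columns 2 and 3 held identical counts for 31.8% to 39.4% of genes under exchanged numbers, against 0.349% to 0.438% under their own.

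Tests were run in edgeR 4.0.16 under R 4.3.3 (quasi-likelihood F-test, robust, TMM, filterByExpr with a minimum count of 10, Benjamini-Hochberg at 0.05, two-sided), over 19176 genes in exonic and 13318 in intronic counts. Exonic and intronic differences were compared over 13047 genes as an interaction, with the sample as covariate. The SE is the size of the coefficient divided by the square root of F. Scripts were tested on simulated data with known changes. Counts of replicates were compared pairwise, and the chi-square divided by its degrees of freedom was 10.2 to 34.2, above counting noise in each pair.

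The groups share replicate numbers. Deviations from group means correlated between same-numbered libraries (Pearson r 0.425, 0.477, 0.454 and 0.450 in exonic counts), all over 0.1. The labels state no pairing, so the main differences, SE and calls are unpaired. The replicate block, which takes the numbers as pairs, was an alternative. Other alternatives were RLE scaling, no filter, a minimum count of 50, DESeq2 1.42.0, limma-voom (limma 3.58.1), the second table's exonic counts, its exonic plus intronic counts, and leaving out each library.

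The members and lists were chosen with earlier results of these data known. Named were all 9 members, up to 4 genes of smallest p past the threshold per list (1 such gene is not reported here), and the 5 genes nearest to Mnt (mean count at least 50, pseudocount 0.5). Srebf1, Khk, Sin3a, Sin3b, Hdac1, Hdac2, AC133451.2 and Psmc3ip, with Gm42846, were named outside that rule after their values were seen. So were the marker genes past the test.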

Additional observations from a re-analysis of the deposited data

Results flagged for a closer look

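In 54 groups of 4 libraries, the library farthest out was judged by its gap to the nearest other, divided by the range, against Dixon's 95% critical value, and 3 exceeded it, where chance gives about 1 in 20. The intronic level of Mga in Mock 3 (numbered as in the second table) was 50.4 CPM, below the other Mock libraries. The exonic level of Mycl in Mock 1 was 4.84 CPM, above the other Mock libraries. The intronic share of Mlx in Pilo 2 (second table) was 25.3%, below the other Pilo libraries.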

How the results depend on the processing

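Of 350 alternative values for the members' 25 differences, 349 lay within 1 SD of replicates. The exception was Mxd4 (-0.46 in the second table's exonic counts). Many of these values left out a single library, which can hardly move a group mean by 1 SD, so those runs could not test this. The sign changed in 18 of the 350, for 5 differences of at most 0.07 in size: Mycl, Mxi1 and Mga in exonic counts, Mga in intronic counts, and Max in exonic minus intronic. It changed in 0 of those past the threshold. For the 20 genes the naming rule took from the lists, 299 of 320 alternative calls stayed on their side of the threshold, 21 lost it (Mxd3, Srebf2, Txnip and Fasn) and 0 changed sign. Within libraries of low or high mitochondrial share, a split chosen after seeing the data, Mxd4 (-0.65 and -0.48) and Mycl (-0.24 and 0.23) moved by more than 1 SD in exonic counts. For genes whose groups did not overlap, such as Mnt and Mxd4, the sign within each part of the split was fixed in advance.

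With the replicate block, pairing same-numbered libraries, 4572 genes were higher in exonic counts instead of 2994, and 2680 had an exonic difference above the intronic one instead of 1756. Under this block 4 members were lower in exonic counts, 2 were higher and 5 lower in intronic counts, and 13 cofactors were higher and 4 turnover regulators lower. Of all genes, 23.8% were then higher and 23.2% lower in exonic counts, and 27.7% and 29.2% in intronic counts. The count of turnover regulators that fell was 1 with RLE scaling, 1 without the filter and 1 over exonic plus intronic counts, and 5 rose in the second table's exonic counts. Of the rest of the network, 1 gene rose without the filter and 2 fell over exonic plus intronic counts.

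Leaving out each library in turn gave 1 to 3 genes that rose in the rest of the network, 4 to 9 that rose and 1 to 2 that fell among turnover regulators, and 2 to 5 that rose and 0 to 1 that fell among MondoA and ChREBP targets. It gave 1 to 2 members higher in intronic counts and 1 to 3 members with the exonic difference above the intronic one. The causes of these shifts were not tested. Low intronic counts limit the intronic values of Myc, Mycl, Mxd3 and Txnip.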
